A study of Mus musculus with 6 samples.

Results

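Orphan G protein-coupled receptors, membrane proteins whose ligand is unknown or disputed, were followed in the medial prefrontal cortex (mPFC) of mice that overexpress *Shank3*, a scaffold protein of the postsynaptic density. The 8 receptor genes described were *Gpr85*, *Gpr27* and *Gpr173* (the superconserved receptors expressed in brain), *Gpr37* and *Gpr37l1* (a pair of related glial receptors), *Gpr62* (an oligodendrocyte receptor), and the neuronal receptors *Gpr158* and *Gpr26*. They were 8 of the 18254 genes in the table and were taken by symbol, and all 8 passed the filter on low values (a mean of 5 normalized read counts), as did 16714 genes in total. The genes were chosen by name, selected on results of this same table (the difference between genotypes), so the levels and differences of these 8 receptors are a description and carry no test.

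Bulk mPFC RNA was sequenced from 10- to 12-week-old male C57BL/6J mice of 2 genotypes, *Shank3* TG and wild type (WT), the WT animals being littermates. The TG mice carry a transgene for Shank3 fused to enhanced green fluorescent protein in addition to their own *Shank3* alleles, and the construct and promoter were not given in the sources used here. The 3 libraries of a genotype are numbered in the labels (TG-1, for example), and values are given below in the order of that number. One library holds the mPFC of 2 mice, so that a value is an average over 2 animals and the spread between libraries understates the spread between mice. No mouse received a treatment that the sources name.

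The deposited values summed to between 28363967 and 29447717 normalized read counts per library. *Shank3* itself, the gene raised by design, read 17470, 19004 and 16310 in TG and 8374, 8173 and 6791 in WT, with a log2 difference of 1.18 (SE 0.10). It matched the labels in all 6 libraries, with a limma adjusted p of 0.0643, and of 0.000437 with the replicate number as a block. In limma 0 of 16714 genes (0%) passed an adjusted p of 0.05, against 1 gene, *Shank3*, with the block (0.00598%). At an unadjusted p under 0.05 limma called 336 genes (2.01%), and 833 with the block (4.98%). The libraries numbered 3 stood apart from the others in both genotypes (their deviations from the genotype means correlated at 0.62 across genes). The differences of the receptors are therefore given also without them. Those of *Gpr27*, *Gpr173*, *Gpr37* and *Gpr37l1* were then 0.02, 0.02, -0.39 and 0.04, and those of *Gpr85*, *Gpr62*, *Gpr158* and *Gpr26* follow below. Markers of mPFC cell types were present, with the excitatory neuron list (*Camk2a*, *Slc17a7* and 5 others) between 195461 and 261218 summed normalized read counts in every library.

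G protein-coupled receptors pass signals to heterotrimeric G proteins, and receptor kinases and arrestins end the signal. The *Gpr85* family is among the most conserved receptors of vertebrates and is expressed mainly in neurons of the brain. GPR37 and GPR37L1 resemble the endothelin receptors in sequence, the former being abundant in myelinating oligodendrocytes and the latter in astrocytes, and prosaposin has been reported as a ligand of both. GPR158 is a large class C receptor that binds the RGS7-Gβ5 complex, which accelerates the turning off of G proteins. GPR26 and GPR62 are reported to signal without an added ligand.

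The ends of the coding sequences are shown because the final residues of GPR85 have been described as the part that binds PSD-95, the postsynaptic scaffold to which Shank3 is also linked. Each line gives the last 30 bases before the stop codon in GENCODE M21 transcripts (GRCm38), written 5′ to 3′ on the coding strand, with the last 4 codons in capitals.
Gpr85: aggttaccaagggaacctTACTGTGTTATA
Gpr173: ccagctcccagagaacccTACTGTGTCATG
Gpr27: ctcccctgcgacctgaaaGGCATTGGTTTG
Gpr37: tccacttttgcttctgtgGGGACTCATTGC
Gpr37l1: cccccactcctgcccctgGGCACCCCTTGC
*Gpr85* and *Gpr173* had the same first 8 of the 12 capital bases, and 10 positions were equal in all. *Gpr85* and *Gpr27* had 5 equal positions, and *Gpr37* and *Gpr37l1* 9. Translated in full, *Gpr85* (370 codons) was 63.1% identical to *Gpr173* (373 codons) over 369 aligned residues and 53.0% identical to *Gpr27* (379 codons) over 368. *Gpr37* (600 codons) and *Gpr37l1* (481 codons) were 47.2% identical over 479 residues. The same alignment gave 20.6% to 34.4% between the members of different families. The longest run of identical coding bases in *Gpr85* and *Gpr173* was the 18 bases TTCTGCATCAGCGTCACC. No stretch of 31 bases was shared between transcripts within the *Gpr85* family or within the *Gpr37* pair. Across families 2 such stretches were shared in each of 3 pairs, *Gpr173* and *Gpr37*, *Gpr173* and *Gpr26*, and *Gpr37* and *Gpr26*, and in no other pair of the 8.

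*Gpr85* (ENSMUSG00000048216, chromosome 6 from 13834458 to 13839942, minus strand, GRCm38) has its whole coding sequence in 1 of the 4 exons of the transcript used. Its normalized read counts were 1228, 1224 and 1422 in TG-1, TG-2 and TG-3 and 840, 1027 and 1025 in the WT libraries of those numbers. Every TG library lay above every WT library, with WT-1 the lowest of the 6 and TG-3 the highest. Averaged, they came to 1292 ± 113 in TG and 964 ± 107 in WT (SD, n = 3 libraries each), which is 33.9% more in TG. The log2 difference was 0.42 (SE 0.11), and it was 0.55, 0.25 and 0.47 between the libraries numbered 1, 2 and 3. It was 0.33 without WT-1 and 0.47 without WT-2, the lowest and highest values when 1 library was left out, and 0.40 without both libraries numbered 3.

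**Figure D1:**
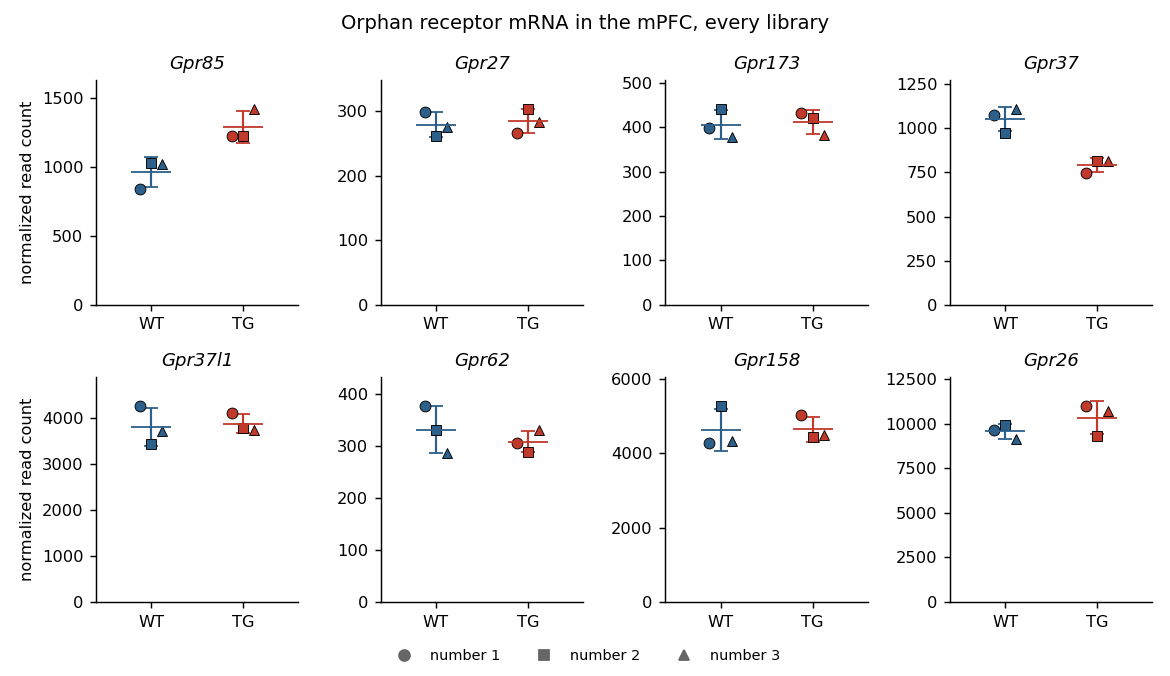
Normalized read count (vertical axes, each from 0) of the 8 receptors in every library of WT (blue) and TG (red) mPFC. Horizontal bars are means and error bars SD over 3 libraries, and symbols give the library number. The TG libraries of *Gpr85* lie at 1224 or above and its WT libraries at 1027 or below, those of *Gpr37* lie at 817 or below against 977 or above, and in the other 6 receptors the genotypes overlap.

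The relatives of *Gpr85* did not separate by genotype. *Gpr27* (ENSMUSG00000072875, chromosome 6 from 99692679 to 99695066, plus strand), a single-exon gene, read 266, 303 and 284 in TG and 299, 262 and 276 in WT. The lowest and the highest values of the TG and WT ranges nearly coincided, and the log2 difference was 0.03 (SE 0.11). *Gpr173* (ENSMUSG00000056679, chromosome X from 152343598 to 152368704, minus strand) read 431, 421 and 381 in TG and 399, 441 and 378 in WT. The third library was the lowest in both genotypes, by 0.16 on the log2 scale in TG and 0.15 in WT below the mean of the first and second, while the log2 difference between genotypes was 0.02 (SE 0.10). For both genes the sign of that difference changed when single libraries were left out, over -0.02 to 0.08 for *Gpr27* and -0.03 to 0.08 for *Gpr173*.

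*Gpr37* (ENSMUSG00000039904, chromosome 6 from 25665878 to 25690729, minus strand) was lower in TG. It read 747, 817 and 814 in TG and 1074, 977 and 1110 in WT. All 3 TG libraries lay below all 3 WT libraries. The means were 793 ± 39.5 in TG and 1054 ± 69.0 in WT (SD, n = 3 libraries each), and the log2 difference was -0.41 (SE 0.09). Between libraries of the same number it was -0.52, -0.26 and -0.45, and it stayed between -0.46 and -0.37 when any 1 library was left out. In pooled tissue, fewer cells of a type and less RNA per cell cannot be told apart.

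**Figure D2:**
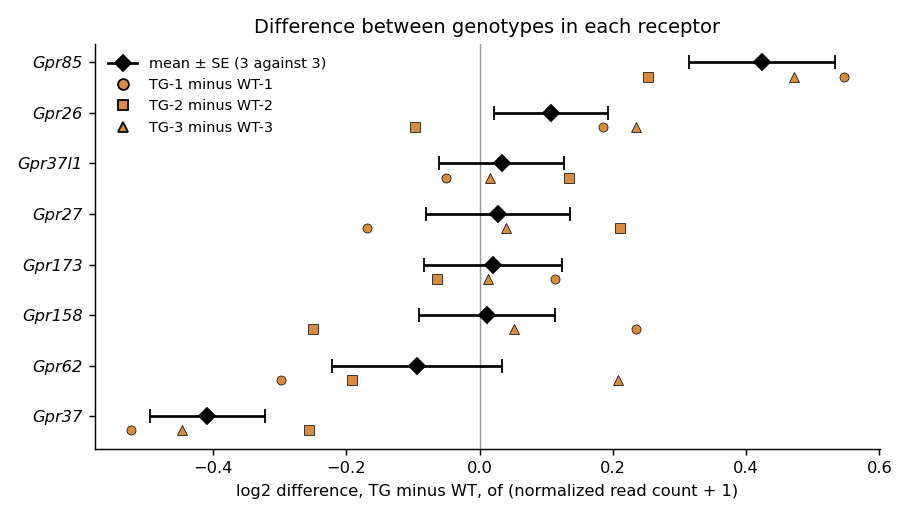
Log2 difference, TG minus WT, of normalized read count plus 1 for each receptor (horizontal axis). Black diamonds and bars are the mean and its SE from the fit over 3 against 3 libraries, and orange symbols are the differences between TG and WT libraries with the same number. *Gpr85* at 0.42 and *Gpr37* at -0.41 have all 3 numbered differences on one side of 0, whereas those of the other 6 receptors lie on both sides.

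*Gpr37l1* (ENSMUSG00000026424, chromosome 1 from 135160234 to 135167681, minus strand), the relative of *Gpr37*, read 4107, 3771 and 3745 in TG and 4252, 3437 and 3706 in WT. The WT libraries spanned the whole TG range, and the log2 difference was 0.03 (SE 0.09). *Gpr62* (ENSMUSG00000091735, chromosome 9 from 106463962 to 106465938, minus strand) read 306, 290 and 331 in TG and 377, 331 and 287 in WT. Its log2 difference was -0.09 (SE 0.13), made of -0.30 and -0.19 in the libraries numbered 1 and 2 and 0.21 in those numbered 3. Without both libraries numbered 3 it was -0.24 (SE 0.13), with the remaining TG libraries below the remaining WT libraries.

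The neuronal receptors overlapped between genotypes. *Gpr158* (ENSMUSG00000045967, chromosome 2 from 21367542 to 21830547, plus strand) read 5033, 4427 and 4481 in TG and 4279, 5267 and 4326 in WT. Both the highest and the lowest values were in WT, and the log2 difference was 0.01 (SE 0.10), or -0.0084 without both libraries numbered 3. *Gpr26* (ENSMUSG00000040125, chromosome 7 from 131966460 to 131994405, plus strand) read 10996, 9311 and 10755 in TG and 9668, 9964 and 9141 in WT. TG-1 and TG-3 lay above all WT libraries and TG-2 did not, with a log2 difference of 0.11 (SE 0.09). That of *Gpr26* stayed above 0, between 0.06 and 0.18, when any 1 library was left out, and was 0.04 (SE 0.09) without both libraries numbered 3.

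Thus 1 of the 8 receptors was higher in every TG library than in any WT library and 1 was lower. Over all genes tested, 1007 had no overlap between genotypes (6.02%), 486 with TG higher (2.91%) and 521 with TG lower (3.12%), and nothing is read from the receptors' count because the genes were chosen with this contrast known. By sign, 2 of the 8 differences were below 0 (*Gpr37* and *Gpr62*), beside 8595 of all genes tested (51.4%). The median difference of the 8 was 0.02, and of all genes tested -0.00368.

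Levels between genes were compared per kilobase of exon, over the union of exons of each gene. *Gpr37l1* was the most abundant, at 1691 normalized read counts per kb over the 6 libraries (1515 to 1874), above 96.2% of the genes tested. *Gpr26* followed at 862 (790 to 950) and *Gpr158* at 567 (524 to 645). *Gpr85* came next at 276 (206 to 348), and it was the most abundant of its family, with *Gpr27* at 118 (110 to 127) and *Gpr173* at 79.9 (73.9 to 86.2). *Gpr62* was at 162 (145 to 191) and *Gpr37* at 152 (123 to 183), and these ranges overlapped. Those of *Gpr37* and *Gpr27* overlapped as well, through TG-1 of *Gpr37*, which over all TG libraries stood at 131 ± 6.51 per kb against 174 ± 11.4 in WT (SD, n = 3). No other neighbours in this order overlapped, and with the length of the longest transcript in place of the exon union *Gpr62* and *Gpr37* changed places.

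**Figure D3:**
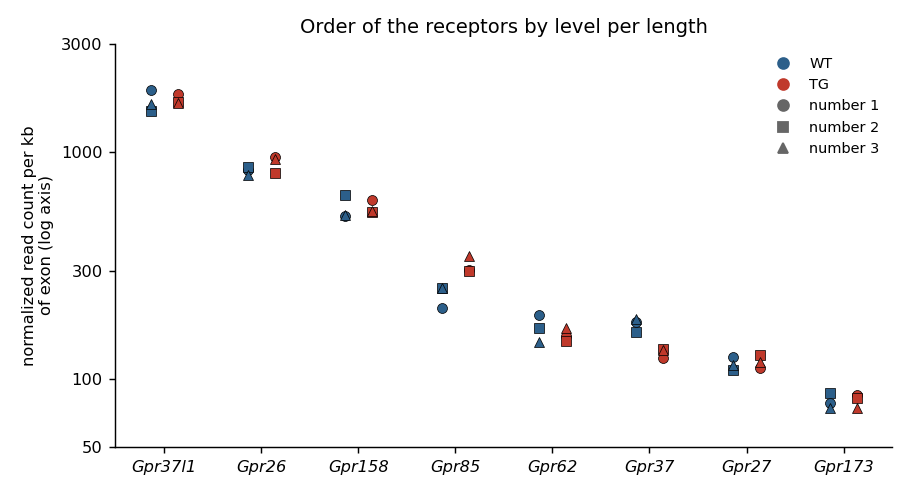
Normalized read count per kb of exon (log axis) of the 8 receptors in every library of WT (blue) and TG (red), ordered by the mean of the 6 libraries; symbols give the library number. The order runs from *Gpr37l1* at 1691 per kb to *Gpr173* at 79.9 per kb, and only *Gpr62*, *Gpr37* and *Gpr27* have ranges that touch a neighbour's.

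Annotated overlaps bear on some of these levels, since the use of strand in counting was not given in the sources used here. The last 51 bases of *Gpr62* are shared with exons of *Pcbp4* on the opposite strand, an RNA-binding protein gene at 3285 to 3909 normalized read counts per library. *Gpr26* lies whole inside the body of *Fgfr2*, a growth factor receptor gene on the opposite strand, but 0 exon bases are shared, and *Fgfr2* read between 922 and 1197. *Gpr173* shares 122 exon bases and *Gpr158* 601 with antisense or non-coding genes that are not used here.

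The glial receptors were set beside the markers of their cell types. The myelinating oligodendrocyte list of 15 genes (among them *Mbp* and *Mobp*, which encode myelin proteins) had a log2 difference below 0 in all 15 (that of *Gjb1* being -0.0052), and 13 were lower at an unadjusted limma p under 0.05, 14 with the block. The median log2 difference of the list was -0.43, and 12 of its 15 genes had no overlap between genotypes. *Mobp*, for example, was at 11256 ± 2107 in TG and 16203 ± 1797 in WT (SD, n = 3), a log2 difference of -0.54 (SE 0.14) with a limma adjusted p of 1.00. An empirical null, in which test scores are divided by their own width over all genes (0.731), makes every unadjusted p smaller. With it 3 of the 15 passed an adjusted p of 0.05 (*Mog*, *Ermn* and *Aspa*, named after their values were seen). The summed level of the list was between 84112 and 108780 in TG and between 125121 and 127200 in WT, and no marker was at 0. This list was chosen with its values in these libraries known and is no independent evidence.

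Measured against the mean log2 level of that list, *Gpr37* differed between genotypes by 0.00, in place of -0.41 alone. Its values relative to the list, set to a mean of 0 in WT, were 0.09, -0.10 and 0.02 in TG and 0.07, -0.02 and -0.05 in WT, so that the genotypes overlapped. *Gpr62* relative to the same list was 0.47, 0.08 and 0.39 in TG and 0.24, 0.09 and -0.33 in WT, a difference of 0.32 with overlap. The precursor list (*Ptprz1*, *Gpr17*, *Olig2*, *Pdgfra* and 3 others) overlapped in its sum, 8889 to 11618 in TG and 9532 to 11462 in WT, with a median of -0.03. The astrocyte list of 10 genes (*Slc1a2*, *Aldoc*, *Slc1a3* and others) had a median of -0.01, its sum was 132440 to 149478 in TG and 135723 to 156461 in WT, and *Gpr37l1* relative to it differed by 0.04 with overlap.

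**Figure D4:**
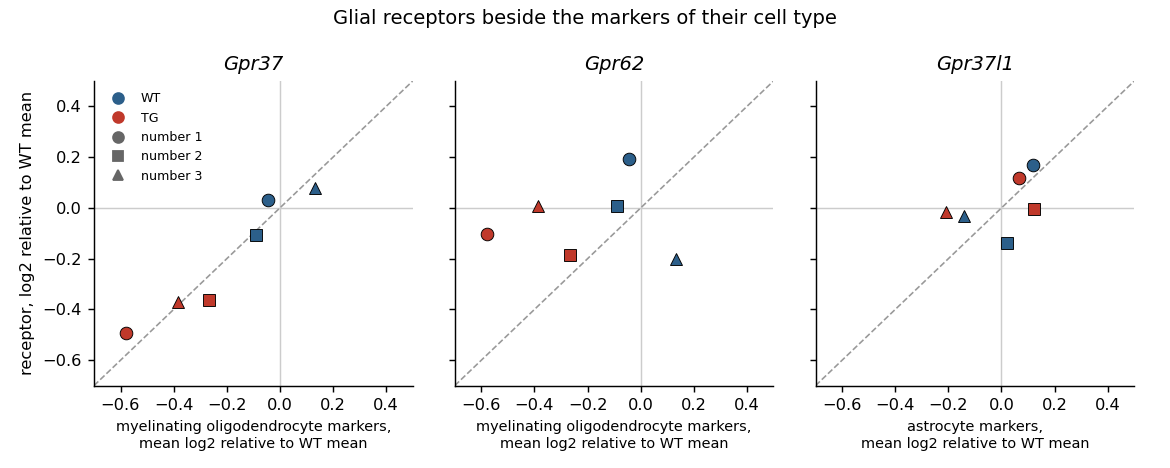
Log2 level of *Gpr37*, *Gpr62* and *Gpr37l1* (vertical axes) against the mean log2 level of the markers of a glial cell type (horizontal axes), both relative to the WT mean, in WT (blue) and TG (red) libraries; symbols give the library number and the dashed line marks equal change. *Gpr37* lies along the dashed line in all 6 libraries, within 0.10, while TG-1 and TG-3 of *Gpr62* lie 0.47 and 0.39 above it.

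Beside the neuronal lists the difference of *Gpr85* kept its size. Relative to the 7 excitatory markers, *Gpr85* was 0.43, 0.44 and 0.33 in TG and -0.07, 0.20 and -0.13 in WT, and its difference of 0.40 remained close to the 0.42 without this reference. Relative to the 7 inhibitory markers (*Gad1*, *Gad2*, *Sst* and others) it was 0.47, again with every TG library above every WT library. The medians of these lists were 0.04 and -0.07, and their sums overlapped, at 200013 to 261218 in TG and 195461 to 256472 in WT for the excitatory list and at 19930 to 20106 and 19428 to 20133 for the inhibitory one. *Gpr27*, *Gpr173* and *Gpr158* differed from the excitatory list by 0.0048, -0.0018 and -0.011 between genotypes, and *Gpr26* by 0.09, all with overlap.

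The remaining lists, for other cell types, other regions and immediate-early genes, varied. The 6 leptomeningeal genes were higher in TG in 6 of 6, with a median of 0.24, and 2 of them, *Igf2* and *Slc6a13*, were higher at an unadjusted limma p under 0.05, and 3 passed with the block, *Col1a1* being added. Their sum was 3603 to 4276 in TG and 3179 to 3661 in WT, and no gene of this list was at 0 in any library. The median was 0.36 for 7 olfactory bulb and neuroblast genes (sums of 2588 to 3561 in TG and 2542 to 3137 in WT) and -0.19 for 6 striatal genes (3671 to 4061 and 3707 to 3929). The mean log2 level of the olfactory list was 6.10, 7.93 and 6.36 in TG and 6.26, 5.98 and 6.63 in WT, so that TG-2 alone lay above the WT range, and its median was 0.76 without both libraries numbered 3. In this list *Scgn*, a calcium-binding protein of olfactory bulb interneurons, was at 53.3 in TG-2, at 0 in WT-2 and at 3.77 or below in the other libraries, a value named after it was seen. The median was -0.10 for 6 choroid plexus and ependymal genes (182 to 631 and 179 to 355), whose log2 differences ran from -2.60 to 2.42. At an unadjusted limma p under 0.05, 2 of these were lower in TG and 1 was higher. Without both libraries numbered 3 the median of this list was 0.09 and 1 gene passed. *Ttr*, the transthyretin gene of the choroid plexus, read 127, 22.9 and 445 in TG and 14.3, 12.6 and 41.7 in WT, and *Tmem212*, an ependymal gene, read 0.923, 0 and 0 in TG and 1.88, 3.84 and 29.8 in WT. The microglial list of 6 genes had a median of -0.01 (7817 to 9756 and 8218 to 10509), the endothelial and mural list of 8 genes -0.01 (11498 to 12057 and 10874 to 12630), and the immediate-early list of 9 genes -0.05 (41798 to 60672 and 45229 to 61726). The part of these cells in the receptors' values was not tested.

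Of 8 genes for proteins reported to bind or activate these receptors, 4 were higher and 4 lower in TG, with log2 differences between -0.06 and 0.07, and 0 of the 8 passed an unadjusted limma p of 0.05, with or without the block. *Dlg4*, which encodes PSD-95, read 26201, 26402 and 22763 in TG and 26764, 24802 and 20472 in WT, a difference of 0.07 (SE 0.12). It was lowest in the third library of both genotypes. *Nlgn1*, a postsynaptic adhesion protein, differed by -0.06 (SE 0.12), and *Psap*, the precursor of prosaposin peptides, by 0.05 (SE 0.10). For GPR158, *Rgs7* and *Gnb5* differed by 0.00047 (SE 0.08) and -0.03 (SE 0.09), and *Rgs7bp*, which anchors that complex, by -0.00099 (SE 0.11). *Gpc4*, a heparan sulfate proteoglycan that binds GPR158 across the synapse, differed by 0.07 (SE 0.10).

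Of 33 genes for G protein subunits, receptor kinases and arrestins 31 were tested (*Gna14* and *Gnb3* were too low), 20 were higher and 11 lower in TG, and the median was 0.01. At an unadjusted limma p under 0.05, 1 of the 31 passed, beside 2.01% of all genes tested. This was *Grk4*, a receptor kinase, at 365 ± 21.9 in WT and 299 ± 16.8 in TG (SD, n = 3). Its log2 difference was -0.29 (SE 0.10), with a limma adjusted p of 1.00. The list had 0 such genes without TG-1, TG-3, WT-2 or WT-3, and without both libraries numbered 3. The *Grk4* values of 285, 318 and 294 in TG all lay below its WT values of 340, 378 and 378. With the block 3 passed, beside 4.98% of all genes tested. They were *Grk4*, *Gna12* and *Gng13*, the latter pair being named after their values were seen. In this list 2 genes had no overlap between genotypes, both lower in TG, beside 6.02% of all genes tested. The most abundant per kb were *Gnb1*, *Gnas*, *Gng3* and *Gnao1*, with differences of 0.07, -0.05, 0.09 and 0.04. *Gnas*, the stimulatory alpha subunit, read 26916, 26547 and 47875 in TG and 28403, 26072 and 51291 in WT, so its spread was between the third libraries and the rest and not between genotypes.

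A wider list of 64 orphan receptors was used as the surroundings of the 8. Of these, 54 were in the table and 49 were tested, with 30 higher and 19 lower in TG and a median of 0.06. At an unadjusted limma p under 0.05, 1 of the 49 passed, beside 2.01% of all genes tested. It was *Gpr161*, a receptor of the primary cilium, at 211, 178 and 201 in TG and 252, 231 and 257 in WT. Its log2 difference was -0.32 (SE 0.12) with a limma adjusted p of 1.00, and its genotypes did not overlap. The list had 0 such genes without TG-2 or WT-1. With the block 4 passed, beside 4.98% of all genes tested: *Gpr161*, *Gpr153*, *Gpr63* and *Mrgpre*. The last 3 were named after their values were seen and were higher in TG. Without overlap between genotypes were 2 of the 49, both lower in TG, beside 6.02% of all genes tested. The 4 most abundant per kb were *Gpr162*, *Gprc5b*, *Gpr22* and *Gpr17*, which differed by 0.05, -0.06, -0.01 and -0.05. *Gpr17*, a receptor of differentiating oligodendrocyte precursors, read 1290, 1555 and 1208 in TG and 1533, 1358 and 1295 in WT, so its genotypes overlapped.

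**Figure D5:**
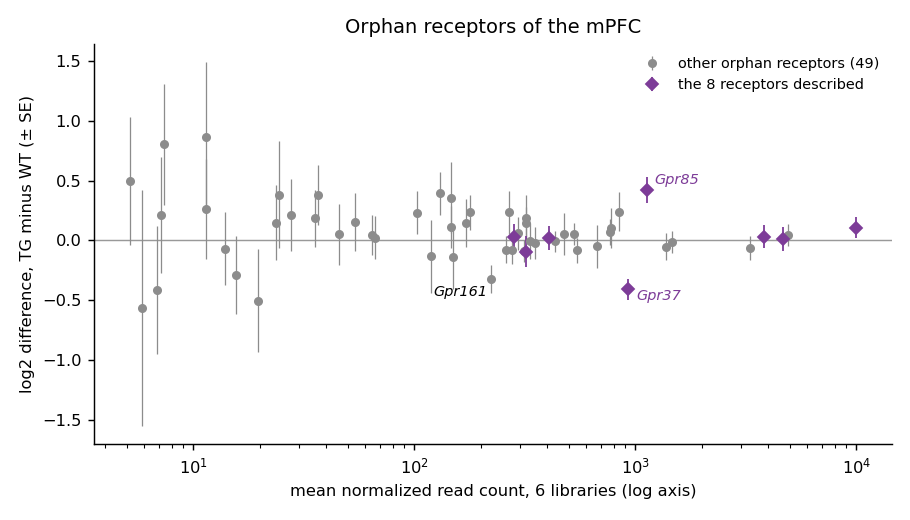
Log2 difference, TG minus WT, with its SE (vertical axis) against the mean normalized read count of the 6 libraries (log axis) for the 49 other orphan receptors tested (grey) and the 8 receptors described (purple). *Gpr85* at 0.42 and *Gpr37* at -0.41 stand off the zero line. So do *Gpr63* at 0.40 (SE 0.18, mean count 130) and *Gpr161* at -0.32 among the grey points. The scatter widens at low counts, where differences ran from -0.56 to 0.87.

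The genes whose values followed each receptor most closely over the 6 libraries were found by the root mean square difference of log2 profiles, each centred on its own mean, among 13454 genes with a mean of at least 50. This is a description over 6 libraries of 2 genotypes. For *Gpr85* they were *Thbs1* (0.08), a secreted matrix protein, *Bmp7* (0.08), a growth factor of the bone morphogenetic family, and *Faap20* (0.08), while *Gpr173* and *Gpr27* stood at ranks 4830 and 5311. For *Gpr37* they were *Jpt2* (0.05), *Bcas1* (0.05), a gene of oligodendrocytes, and *Lrig3* (0.06), and *Gpr62* stood at rank 3297. *Bcas1* read 2306, 2755 and 2469 in TG and 3414, 3175 and 3658 in WT, the same order of genotypes as *Gpr37*. For *Gpr27* the nearest were *Dok5*, *Sgpl1* and *Tjap1*, for *Gpr173* *Tmem70* and *Snapc1* among others, and for *Gpr37l1* *Nr1h3*, *Arhgef10l* and *Mbd3*. For *Gpr62* they were *Map3k15*, *Amot* and *Alg12*, for *Gpr158* *Ptprc*, *Gm38393* and *Gabra4*, and for *Gpr26* *Pip5k1b*, *Tpd52l1* and *Lmtk2*. Among the 8 receptors the closest pair was *Gpr173* and *Gpr158* (0.07), and the median distance of *Gpr85* to all genes compared was 0.28.

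RefSeq promoter windows (GRCm38.p6, 250 bases before to 50 after the start) were held for 6 of the 8 receptors, *Gpr85*, *Gpr173*, *Gpr37*, *Gpr37l1*, *Gpr62* and *Gpr158*. The RefSeq start of *Gpr37* lies 749 bases inside the GENCODE gene given above, so its whole window lies within that gene. In the other 5 the RefSeq start was closer to the GENCODE one. That of *Gpr85* had 33.3% GC and the other 5 between 53.7% and 62.7%, against a median of 52.7% over 32851 windows. Searched on both strands, the cAMP response element TGACGTCA, its core TGACG, which it contains, and the EGR1 site GCGTGGGCG were in 0 of the 6, and in 1.79%, 20.8% and 0.612% of all windows. The SOX core, ACAAAG or ACAATG, was in 1, at 161 bases before the start of *Gpr85*, and in 28.6% of all windows. An E-box, CANNTG, was in 4 of the 6, *Gpr37*, *Gpr37l1*, *Gpr62* and *Gpr158*, and in 72.3% of all windows. These are matches of letters, not sites of binding.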

How the data were processed

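The 6 mPFC libraries were made with a TruSeq Stranded mRNA kit and sequenced as paired-end reads. The authors quantified transcripts on GRCm38 with Salmon 0.9.1 with GC bias correction, imported them by gene in R 3.6.0 and normalized them with DESeq2 1.19.11. The deposited values are therefore a signal, read counts divided by size factors, and are not whole numbers: at most 23.2% of low values in a library lay within 0.02 of multiples of one step, so reads were not recovered, no counting interval was given and no count model was fitted.

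Of 18254 IDs, 18231 matched GENCODE M21, which gave symbols, positions, exon lengths and coding sequences; the annotation release the authors used was not given in the sources used here. Values were analysed in R 4.3.3 with limma 3.58.1 on log2(value + 1), for genes with a mean of at least 5, with genotype alone in the model and eBayes with a mean-variance trend. P-values are two-sided and were adjusted by Benjamini-Hochberg over the 16714 genes. A fold change on this scale understates that of low genes. The fit was tested on simulated data. The members and gene lists were chosen with earlier results of these data known.

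Libraries with the same replicate number deviated together: the correlations of their deviations from the genotype means, across genes, were 0.30, 0.33 and 0.62, each over 0.1, so the number was also fitted as a block. Between different numbers they were 0.27 and 0.23 among libraries 1 and 2 and -0.44 to -0.39 where a library numbered 3 was one of the pair, so the pattern was mostly libraries 3 against the rest. Labels do not say what a number marks. Named genes were the 8 receptors, *Shank3*, all partners, in the other 2 signalling lists the genes with an unadjusted p under 0.05 and no overlap plus the 4 most abundant per kb, the 3 genes nearest each receptor, and at most 4 abundant markers per cell type. *Gjb1*, *Mog*, *Ermn*, *Aspa*, *Col1a1*, *Tmem212*, *Scgn*, *Gna12*, *Gng13*, *Gpr153*, *Gpr63* and *Mrgpre* fall outside this rule and were named after their values were seen. Some genes that this rule names are not reported here.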

Additional observations from a re-analysis of the deposited data

How the results depend on the processing

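The difference of each of the 8 receptors moved by less than the spread within genotypes under all alternatives run: a pseudocount of 0.1 or 5, other filters (none, or a mean of 50), upper quartile and quantile scaling, the replicate block, each library left out, and, chosen after seeing the data, both libraries numbered 3 left out. Those of *Gpr85*, *Gpr37* and *Gpr26* kept their sign, and those of the other 5, near 0, did not under at least 1 alternative. Genes called at an adjusted p of 0.05 went from 0 to 1 (*Shank3*) with upper quartile scaling, the robust option, the replicate block and both libraries numbered 3 left out, to 26 with an empirical null (3 of them myelinating oligodendrocyte markers), and to between 0 and 1 with 1 library left out. Genes at an unadjusted p under 0.05 went from 336 to 833 with the block, to 1215 with the empirical null, and to between 219 (without TG-1) and 417 with 1 library left out. The other orphan receptors at that p went from 1 to 4 with the block, 4 with the empirical null, 2 without both libraries numbered 3, and 0 to 2 with 1 library left out (0 without TG-2 or WT-1, 2 without WT-2). The G protein list went from 1 to 3 with the block, 2 with the empirical null, 0 without both libraries numbered 3, and 0 to 2 with 1 left out (2 without TG-2, 0 without TG-1, TG-3, WT-2 or WT-3). The causes were not tested. Genes without overlap between genotypes were counted under other filters and scalings, chosen after seeing the data, and stayed within 1.5 times of 1007. The block also moved the leptomeningeal count from 2 to 3 and the myelinating oligodendrocyte count from 13 to 14, and the counts of the other cell type lists and of the partners stayed equal. Without both libraries numbered 3 the leptomeningeal count went from 2 to 4 and the choroid plexus and ependymal count from 3 to 1. With 3 against 3 libraries an exact permutation test cannot go below 0.1, and none was run.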
